A study of Mus musculus with 12 samples.

Results

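The genes described here make the proteins that separate the chromosomes in mitosis and then divide the cell. They were chosen as a list of 52 symbols covering 8 roles, from the spindle checkpoint to cytokinesis. This list and the other gene lists below were chosen with earlier results of these data known. The shares of all genes set beside their counts are therefore description, not an independent test. Of the 52, 51 had a probe set that names them alone, of 22180 genes measured. The remaining listed gene, Ncapg, shares its probe set with another gene and was not analysed here. Each of the 51 had 1 such probe set. Liver RNA was measured on 12 Affymetrix arrays, 3 in each of 4 groups. All mice were male C57Bl/6N carrying the floxed p53 allele Trp53tm1Brn/J, and all were 2 months old when an adenovirus was injected into the tail vein. The virus carried Cre recombinase, which removes the floxed part of p53 (Adeno-Cre), or green fluorescent protein as the control (Adeno-GFP), at equal titre. Starting 3 days after the injection the mice were either fed freely or fasted for 24 h before the liver was taken, which gives Adeno-GFP fed, Adeno-GFP fasted, Adeno-Cre fed and Adeno-Cre fasted livers. Every group thus carried the floxed allele and received a virus. The labels used here give neither the promoter driving Cre nor the share of liver cells it reached, and do not say that the arrays of a group come from separate mice. P-values therefore measure the spread between these samples, which may be technical.

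In a dividing cell, condensins and topoisomerase fold and untangle the chromosomes, kinetochores form on the centromeres to catch spindle microtubules, and the spindle checkpoint holds back the anaphase-promoting complex until every chromosome is attached. Separase then cuts the cohesin rings, kinesins push the spindle poles apart, and the central spindle directs the cleavage furrow. Most adult hepatocytes rest outside the cell cycle and hold little of these messages. As background, p53 is known to lower many genes of this kind through its target Cdkn1a and the DREAM complex, a repressor that sits on a promoter element named the cell cycle homology region (CHR), while the activator NF-Y binds CCAAT boxes in the same promoters.

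The promoters of these genes were compared first, because the members moved together on the arrays. The RefSeq promoter table (GRCm38.p6, 250 bases before to 50 after each gene's start) held 50 promoters for 44 of the 51 genes. It was searched on both strands for the CCAAT box (CCAAT, read as ATTGG on the other strand) and for the CHR (TTTGAA or TTCGAA, of which the first reads TTCAAA on the other strand). A CCAAT box was present in 37 of the 50 promoters (74.0%), against 37.4% of all 32851 promoters of that length in the table. A CHR was present in 40 (80.0%), against 19.2%, and both were present in 33 (66.0%), against 7.52%. The matches overlapped each other in 1 of the member promoters, that of Cdca8, and in 48 of all promoters (0.146%). Neither motif was found in the windows of Birc5, Mad2l1, Ncaph, Nuf2, Nusap1 and Pttg1. Their log2 change with Adeno-Cre, averaged over diets, was 1.74, 1.71, 1.53, 2.03, 1.65 and -0.001 in that order. Among the genes with both motifs it ran from 0.15 for Espl1 to 2.36 for Depdc1a. Whether the motifs go with the size of the change was not tested. A match describes the letters and is no measured binding site. Aurkb, Spc24, Incenp, Kif20a, Tpx2, Shcbp1 and Smc4 had no entry.

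The 5 promoters below belong to the genes with the largest Adeno-Cre change, averaged over diets, among those holding both motifs, and they show how differently the motifs are placed. Each runs 5′ to 3′ on the gene's own strand from 150 bases before its start through the first 30 bases from it, with the CCAAT boxes and CHR matches in capitals. On GRCm38.p6 they are Depdc1a at chr3:159495283-159495462 (plus strand), Ect2 at chr3:27153849-27154028 (minus), Prc1 at chr7:80294301-80294480 (plus), Hmmr at chr11:40733408-40733587 (minus) and Bub1 at chr2:127831830-127832009 (minus).
Depdc1a: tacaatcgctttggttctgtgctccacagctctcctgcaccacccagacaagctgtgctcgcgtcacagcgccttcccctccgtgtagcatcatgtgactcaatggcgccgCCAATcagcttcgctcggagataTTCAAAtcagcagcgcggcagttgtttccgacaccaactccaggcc
Ect2: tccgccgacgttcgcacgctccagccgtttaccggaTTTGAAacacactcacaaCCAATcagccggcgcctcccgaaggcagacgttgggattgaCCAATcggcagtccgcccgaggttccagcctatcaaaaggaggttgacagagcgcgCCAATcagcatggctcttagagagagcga
Prc1: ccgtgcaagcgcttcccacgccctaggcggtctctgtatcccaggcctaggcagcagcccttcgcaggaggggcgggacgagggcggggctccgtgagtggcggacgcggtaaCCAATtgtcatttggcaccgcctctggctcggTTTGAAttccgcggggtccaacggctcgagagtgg
Hmmr: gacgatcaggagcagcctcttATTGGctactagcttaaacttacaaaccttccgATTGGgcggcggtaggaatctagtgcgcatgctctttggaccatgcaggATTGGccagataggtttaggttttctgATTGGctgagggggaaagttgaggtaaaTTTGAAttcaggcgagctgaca
Bub1: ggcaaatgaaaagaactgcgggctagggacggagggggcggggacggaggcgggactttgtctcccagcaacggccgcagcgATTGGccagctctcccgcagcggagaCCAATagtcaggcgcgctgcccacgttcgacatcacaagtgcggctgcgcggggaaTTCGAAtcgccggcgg
Within these printed stretches, Depdc1a and Prc1 each show 1 CCAAT box upstream of 1 CHR. Hmmr shows 4 CCAAT boxes, all read from the opposite strand, ahead of a CHR that lies past the start, and its searched window holds 5. Bub1 has 2 CCAAT boxes in opposite orientations and a CHR past the start. In Ect2 the printed CHR comes before all 3 CCAAT boxes, and the searched window holds a further CHR after them, 2 in all.

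The median log2 value of an array ranged from 6.26 to 6.33. Within-group correlations between arrays, over all genes, ranged from 0.991 to 0.994. The deposited values had already been normalized by RMA, so these ranges do not show how alike the samples were. A probe set naming Trp53 alone was not analysed here, so the deletion itself was not checked. Of 12 measured p53 targets of arrest and feedback, 2 fell with Adeno-Cre in fasted and 2 in fed livers, where 0.482% and 0.415% of all genes fell. The change was negative for 11 of the 12 in each diet, and 4 fell averaged over diets, where 2.03% of all genes did. Ccng1 was lower with Adeno-Cre in both diets, by a log2 change of -0.50 (SE 0.09, adjusted p = 0.00986) in fasted and -0.58 (SE 0.09, adjusted p = 0.0135) in fed livers. Sesn1 passed as lower in fasted livers and Plk2 in fed livers. The difference between diets, tested as the interaction of injection and diet, passed for 0 of the 12. Cdkn1a, which codes for the cyclin kinase inhibitor p21, changed by -0.45 (adjusted p = 0.536) and -0.68 (adjusted p = 0.445), which did not pass. All adjusted p-values here are from limma with Benjamini-Hochberg adjustment over all 22180 genes, and a gene is said to rise or fall where its adjusted p is under 0.05. The level that unexpressed genes reach was read from 1394 smell and pheromone receptor genes, whose median was 3.95 and 95th percentile 6.42. The mean of 24 of the 51 members lay under that 95th percentile in Adeno-GFP fasted livers, of 5 in Adeno-GFP fed livers and of 1 in each Adeno-Cre group. The size of a change from such a level is uncertain.

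Mitosis genes were higher with Adeno-Cre in both diets, and the order of the 4 groups was nearly the same gene after gene. For 46 of the 51 members the means ran from Adeno-GFP fasted as the lowest through Adeno-GFP fed and Adeno-Cre fasted to Adeno-Cre fed as the highest, an order held by 4.85% of all genes. For 47 members all 6 Adeno-Cre arrays lay above all 6 Adeno-GFP arrays, against 2.11% of all genes. The exceptions to the latter were Kif23, Ckap2, Pttg1 and Espl1. Relative to the Adeno-GFP fed mean, the mean over the members was 0.03, 0.30 and -0.33 on the 3 Adeno-GFP fed arrays, and -0.42, -1.28 and -0.91 on the Adeno-GFP fasted arrays. It was 0.58, 0.80 and 0.99 on the Adeno-Cre fasted arrays, and 1.14, 1.01 and 1.12 on the Adeno-Cre fed arrays. The 4 groups do not overlap in this mean. These are bulk samples, in which more cells in division and more of these messages per dividing cell cannot be told apart.

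**Figure D1:**
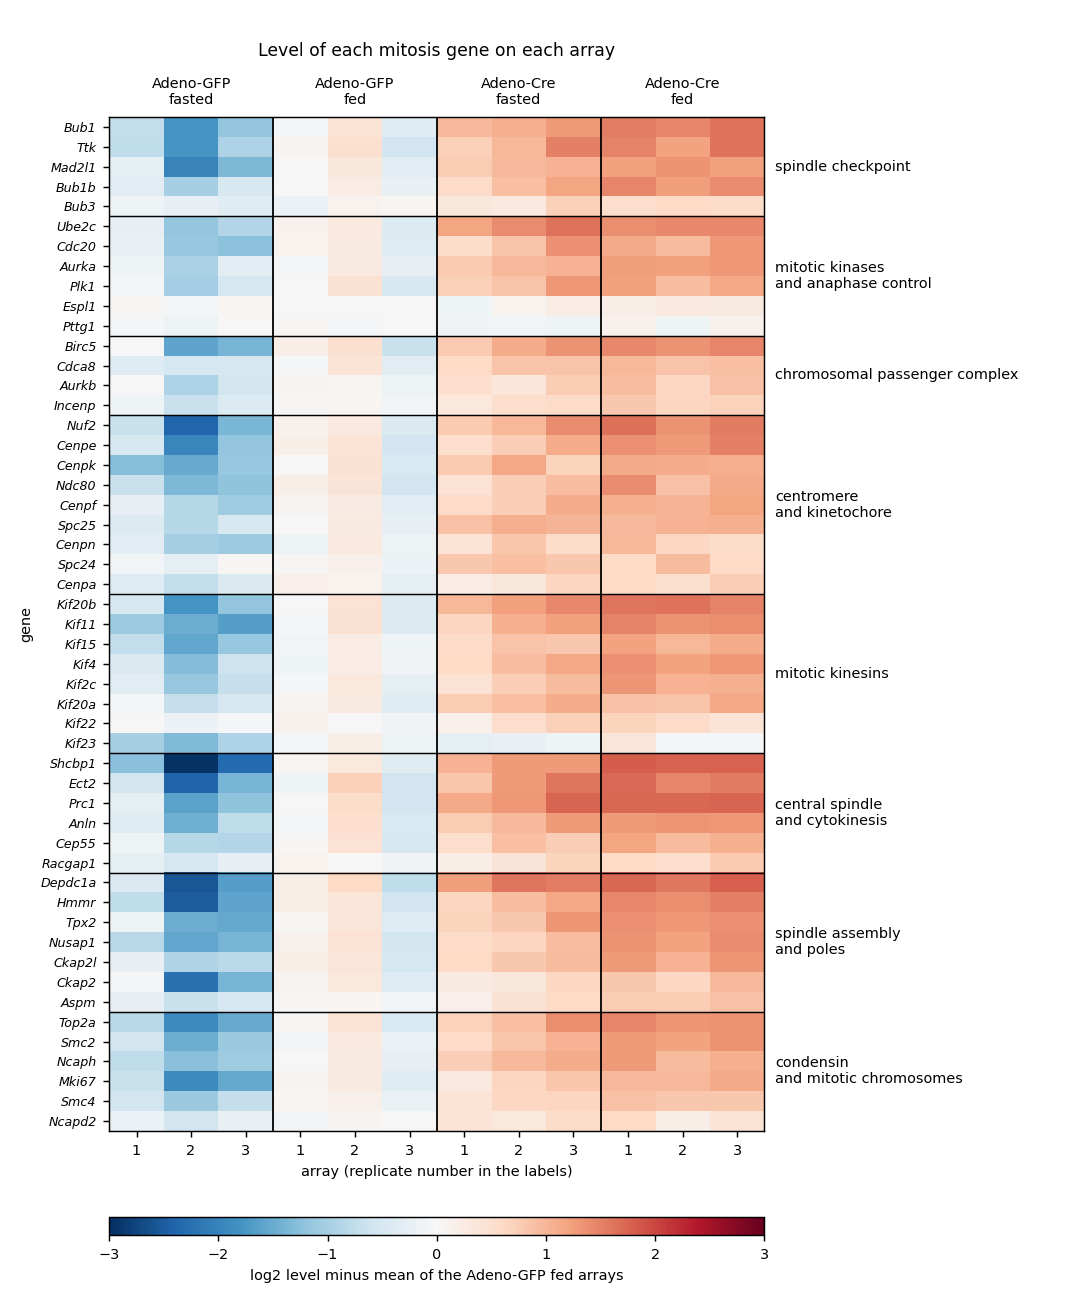
Level of each of the 51 mitosis genes (rows, grouped by role) on each of the 12 arrays (columns), as a log2 difference from the gene's mean on the 3 Adeno-GFP fed arrays. Blue marks lower and red higher levels. Adeno-GFP fasted arrays are blue for nearly all rows and both Adeno-Cre groups are red, with Pttg1, Espl1 and Kif23 standing apart.

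The members also moved together among the arrays of a group. Adeno-GFP fasted replicate 2 was the lowest of all 12 arrays for 43 members. In the Adeno-GFP fed group, replicate 3 was the lowest of the 3 for 46 members and replicate 2 the highest for 45. In the Adeno-Cre fasted group, replicate 1 was the lowest for 45 and replicate 3 the highest for 42. The median SD over the members was 0.334 in Adeno-GFP fed, 0.418 in Adeno-GFP fasted, 0.230 in Adeno-Cre fasted and 0.0999 in Adeno-Cre fed livers, where the median over all genes ran from 0.106 to 0.124. The members were thus more variable than most genes in 3 of the groups and not in Adeno-Cre fed livers, and they are not independent of each other.

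In fasted livers, 48 of the 51 members rose with Adeno-Cre and 0 fell, where 2.26% of all genes rose and 0.482% fell. The median change of the members was a log2 change of 1.67, or 3.19-fold, with a range from -0.05 to 3.39, and the median over all genes was -0.03. The change reached 1 or more for 40 members, against 0.685% of all genes. In fed livers, 32 members rose and 0 fell, where 1.08% of all genes rose and 0.415% fell. The median change was 1.13, or 2.19-fold, with a range from 0.04 to 1.79, against a median of -0.02 over all genes, and 34 members changed by 1 or more, against 0.577%. All 3 Adeno-Cre arrays lay above all 3 Adeno-GFP arrays for 49 members in fasted livers, where 9.96% of all genes did so, and for 49 in fed livers, where 8.4% did. The members that rose in both diets numbered 32, against 0.69% of all genes. Averaged over the diets, 49 members rose, all but Pttg1 and Espl1, and 0 fell, where 3.55% of all genes rose and 2.03% fell. The count in fasted livers stayed between 47 and 48 when any array was left out, and its median change moved to 1.98 without Adeno-GFP fasted replicate 1. The count in fed livers was far less steady: it was 12, 17 and 9 without Adeno-Cre fed replicates 1, 2 and 3, and 3 and 2 without Adeno-GFP fed replicates 1 and 3, while the median change stayed between 0.96 and 1.33. It was 10 when all 41345 probe sets entered the adjustment and 44 of 49 with dim probe sets left out. Bub1b and Spc25 passed in fed livers whichever array was left out.

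**Figure D2:**
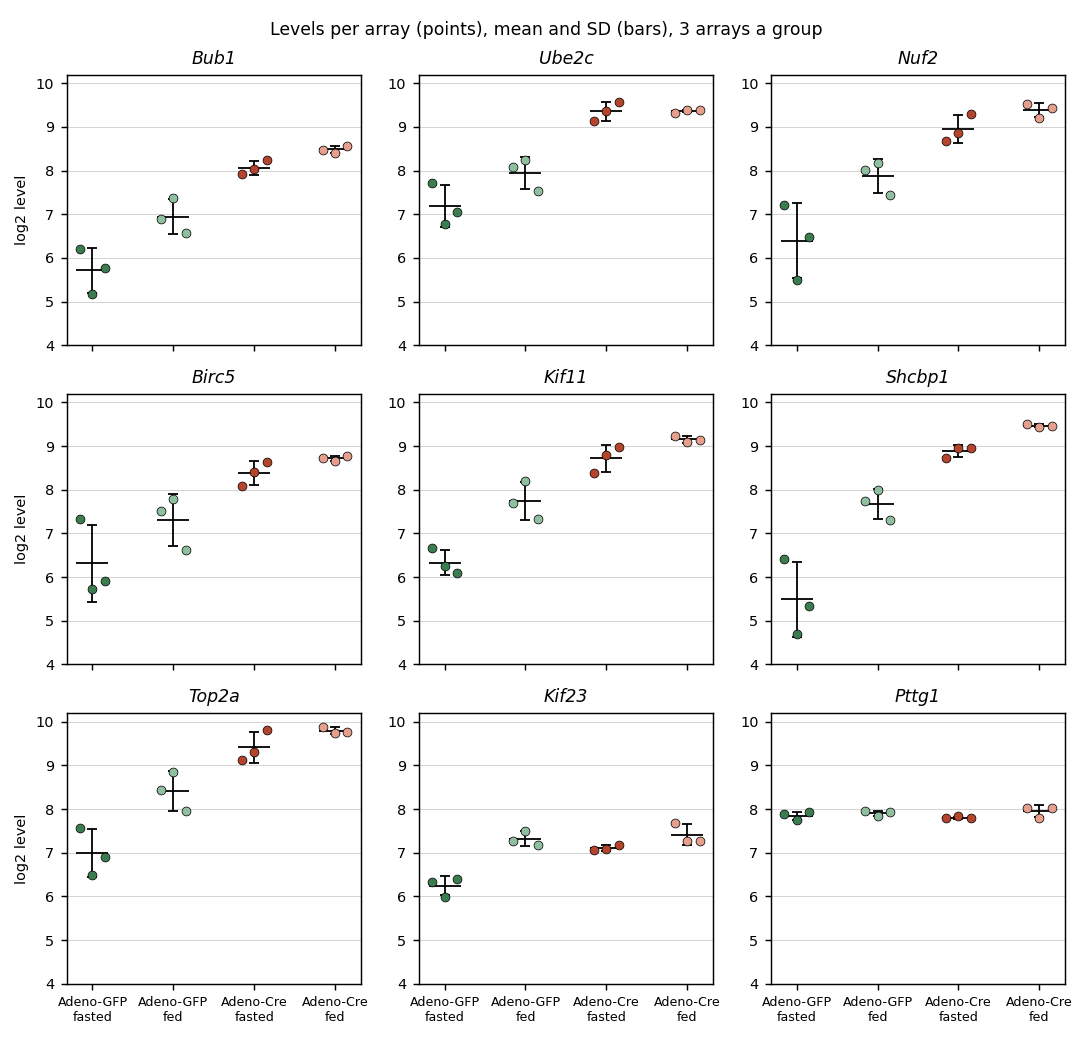
Deposited log2 level on every array (points) for the genes Bub1, Ube2c, Nuf2, Birc5, Kif11, Shcbp1, Top2a, Kif23 and Pttg1, with the mean and SD of the 3 arrays of each group (bars). In the first 7 panels all Adeno-Cre points lie above all Adeno-GFP points, Kif23 is lower in Adeno-GFP fasted livers than in the other groups, and Pttg1 is flat.

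The spindle checkpoint genes all rose in fasted livers (5 of 5, median change 2.15) and 4 of 5 rose in fed livers (median 1.38). Bub1, a checkpoint kinase that sits on unattached kinetochores, stood at 6.20, 5.18 and 5.77 on the Adeno-GFP fasted arrays and at 7.91, 8.03 and 8.23 on the Adeno-Cre fasted arrays. Its fed arrays read 6.90, 7.37 and 6.58 after Adeno-GFP and 8.48, 8.41 and 8.56 after Adeno-Cre. Adeno-Cre arrays lay above Adeno-GFP arrays in each diet without overlap. Bub1 rose by 2.34 in fasted livers (5.07-fold, SE 0.23, adjusted p = 0.000382) and by 1.54 in fed livers (2.90-fold, SE 0.23, adjusted p = 0.0122). Bub3, which docks the checkpoint proteins on the kinetochore, had the smallest change of the group. It read 8.57, 8.48 and 8.37 after Adeno-GFP and 9.06, 9.01 and 9.44 after Adeno-Cre in fasted livers, and 8.55, 8.83 and 8.78 against 9.25, 9.33 and 9.26 in fed livers. These groups were again separate, and the change was 0.70 (1.63-fold, adjusted p = 0.00505) and 0.56 (1.48-fold, adjusted p = 0.0344). The kinase Ttk, which recruits the checkpoint proteins, rose by 2.23 and 1.44, and Bub1b, part of the complex that inhibits Cdc20, by 1.49 and 1.38. Mad2l1, another part of that inhibitor, rose by 2.15 in fasted livers, while its change of 1.27 in fed livers had an adjusted p of 0.0754.

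Mitotic kinases and regulators of anaphase were the group with the most exceptions. Of 6 members, 4 rose in fasted livers (median 1.45) and 2 in fed livers (median 1.12). Ube2c, the enzyme that hands ubiquitin to the anaphase-promoting complex, read 7.71, 6.79 and 7.06 on the Adeno-GFP fasted and 9.12, 9.36 and 9.57 on the Adeno-Cre fasted arrays. In fed livers it read 8.07, 8.24 and 7.53 against 9.33, 9.39 and 9.38. It rose by 2.17 (4.50-fold, SE 0.22, adjusted p = 0.000403) and by 1.42 (2.67-fold, SE 0.22, adjusted p = 0.0135). Aurka, a kinase of the spindle poles, rose by 1.43 and 1.27 in fasted and fed livers. Plk1, a kinase of mitotic entry, and Cdc20, the activator of the anaphase-promoting complex, rose in fasted livers by 1.48 and 1.79, and their fed changes of 1.11 (adjusted p = 0.0603) and 1.13 (adjusted p = 0.0609) did not pass.

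The exceptions act as a pair in the cell. Pttg1 codes for securin, which holds separase inactive until anaphase, and Espl1 codes for separase. Pttg1 read 7.88, 7.75 and 7.92 in Adeno-GFP fasted, 7.79, 7.83 and 7.78 in Adeno-Cre fasted, 7.95, 7.84 and 7.93 in Adeno-GFP fed and 8.03, 7.79 and 8.03 in Adeno-Cre fed livers. The Adeno-Cre and Adeno-GFP arrays overlapped in both diets. The change was -0.05 (95% interval -0.23 to 0.14, adjusted p = 0.826) in fasted and 0.04 (-0.14 to 0.23, adjusted p = 0.899) in fed livers. Espl1 changed by 0.04 (-0.15 to 0.23) and 0.25 (0.06 to 0.45, adjusted p = 0.223), neither of which passed. Its Adeno-Cre arrays all lay above its Adeno-GFP arrays in fed livers, as for 8.4% of all genes, and overlapped them in fasted livers. Its mean lay under the 95th percentile of the receptor genes in all 4 groups.

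All 9 centromere and kinetochore genes rose in fasted livers (median 1.57) and 6 of 9 in fed livers (median 1.09). Nuf2, a rod of the NDC80 complex that grips microtubules, read 7.21, 5.49 and 6.49 in Adeno-GFP fasted livers and 8.67, 8.87 and 9.29 in Adeno-Cre fasted livers. Its fed levels were 8.01, 8.17 and 7.43 against 9.52, 9.22 and 9.42. The groups were separate in each diet, and Nuf2 rose by 2.55 (5.84-fold, SE 0.34, adjusted p = 0.00161) and 1.51 (2.86-fold, SE 0.34, adjusted p = 0.0495). Its partners in the NDC80 complex differed in size of change. In fasted livers Ndc80 rose by 1.77, Spc25 by 1.57 and Spc24 by 0.95, and in fed livers they rose by 1.14, 1.03 and 0.71. Cenpa, the histone variant that marks the centromere, changed least, from 6.82, 6.47 and 6.78 to 7.42, 7.54 and 7.86 in fasted livers and from 7.35, 7.32 and 6.95 to 7.80, 7.70 and 7.95 in fed livers. Its rise of 0.92 in fasted livers passed (adjusted p = 0.0039) and its change of 0.61 in fed livers did not (adjusted p = 0.0626), although no array overlapped in either diet. Cenpk, of the inner kinetochore, rose by 2.18 and 1.12. Cenpf, a large kinetochore protein, rose by 1.53 and 1.09. The motor Cenpe, which carries chromosomes to the spindle equator, and Cenpn, which binds the centromeric nucleosome, rose in fasted livers by 2.00 and 1.40, and their fed changes of 1.39 (adjusted p = 0.0577) and 0.72 (adjusted p = 0.114) did not pass.

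The chromosomal passenger complex corrects faulty attachments and later moves to the midzone. Its 4 genes all rose in fasted livers (median 1.14), and 2 of 4 rose in fed livers (median 0.86). Birc5, which codes for survivin, read 7.32, 5.72 and 5.91 in Adeno-GFP fasted and 8.09, 8.41 and 8.64 in Adeno-Cre fasted livers, and 7.50, 7.78 and 6.63 against 8.74, 8.65 and 8.77 in fed livers. The Adeno-GFP arrays were spread widely and the Adeno-Cre arrays were all higher. Birc5 rose by 2.07 in fasted livers (4.19-fold, SE 0.37, adjusted p = 0.00847), and its fed change of 1.41 (SE 0.37) had an adjusted p of 0.0923. Incenp, the scaffold of the complex, read 6.52, 5.98 and 6.24 against 6.97, 7.17 and 7.22 in fasted livers, and 6.66, 6.69 and 6.56 against 7.44, 7.27 and 7.33 in fed livers. Its smaller changes passed in both, at 0.87 (adjusted p = 0.002) and 0.71 (adjusted p = 0.0179). Cdca8, which codes for borealin, rose by 1.25 and 0.92. Aurkb, the kinase of the complex, rose by 1.04 in fasted livers (adjusted p = 0.0097, or 0.0615 when only the groups compared entered the fit), and its fed change of 0.80 did not pass.

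All 8 mitotic kinesins rose in fasted livers (median 1.55) and 6 of 8 in fed livers (median 1.12). Kif20b, a kinesin of late mitosis, read 7.11, 5.79 and 6.41 in Adeno-GFP fasted and 8.57, 8.81 and 9.03 in Adeno-Cre fasted livers. It read 7.59, 8.01 and 7.16 against 9.19, 9.21 and 9.08 in fed livers. No arrays overlapped, and Kif20b rose by 2.37 (5.17-fold, SE 0.28, adjusted p = 0.000759) and 1.57 (2.97-fold, SE 0.28, adjusted p = 0.0199). Kif11, the motor that pushes the spindle poles apart, rose by 2.38 and 1.41. Kif15, which also acts on the bipolar spindle, rose by 1.90 and 1.10, and Kif4, a motor of chromosome arms and the midzone, by 1.67 and 1.29. Kif2c, which takes microtubules apart at the kinetochore, rose by 1.43 and 1.14, and Kif20a, of the central spindle, by 1.34 and 0.96. The rise of Kif22, a chromosome arm motor, was small at 0.54 and rested on an adjusted p of 0.0498, which became 0.103 when all probe sets entered the adjustment. It did not pass with any 1 array left out, other than Adeno-Cre fasted replicate 1.

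Kif23 stood apart from the other kinesins in the order of its groups. It codes for the motor part of centralspindlin, whose other part is Racgap1. Kif23 read 6.33, 6.00 and 6.40 in Adeno-GFP fasted livers, 7.28, 7.50 and 7.17 in Adeno-GFP fed, 7.06, 7.10 and 7.18 in Adeno-Cre fasted and 7.68, 7.27 and 7.27 in Adeno-Cre fed livers. The Adeno-GFP fasted arrays lay below all others, and the Adeno-GFP fed arrays overlapped both Adeno-Cre groups. Kif23 rose by 0.87 with Adeno-Cre in fasted livers (1.83-fold, SE 0.14, adjusted p = 0.0039). In fed livers the change was 0.09 (95% interval -0.20 to 0.39, adjusted p = 0.855), and it was -0.04 without Adeno-Cre fed replicate 1.

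The central spindle and cytokinesis genes held the largest change of the list. All 6 rose in fasted livers (median 2.14) and 5 of 6 in fed livers (median 1.44). Shcbp1, a midbody protein that binds centralspindlin, read 6.42, 4.71 and 5.34 in Adeno-GFP fasted livers, 7.74, 7.99 and 7.31 in Adeno-GFP fed, 8.72, 8.96 and 8.96 in Adeno-Cre fasted and 9.50, 9.44 and 9.46 in Adeno-Cre fed livers. The 4 groups did not overlap at all. Shcbp1 rose by 3.39 in fasted livers (10.5-fold, SE 0.32, adjusted p = 0.00028) and by 1.79 in fed livers (3.45-fold, SE 0.32, adjusted p = 0.0207), and its Adeno-GFP fasted mean was among those under the 95th percentile of the receptor genes. Prc1, which bundles the microtubules of the midzone, rose by 2.43 and 1.74. Anln, the anillin scaffold of the furrow, rose by 1.86 and 1.30, and Cep55, which recruits the abscission machinery, by 1.36 and 1.07. Ect2, the exchange factor that switches on RhoA at the furrow, rose by 2.69 in fasted livers, and its fed change of 1.58 (SE 0.40) had an adjusted p of 0.0844. Racgap1 changed least, from 6.40, 6.17 and 6.44 to 6.89, 7.08 and 7.35 in fasted livers and from 6.78, 6.70 and 6.57 to 7.29, 7.21 and 7.47 in fed livers. Without overlap, it rose by 0.77 (1.71-fold, adjusted p = 0.00428) and 0.64 (1.56-fold, adjusted p = 0.0273), so that unlike its partner Kif23 it passed in both diets. Whether the fed changes of Racgap1 and Kif23 differ was not tested.

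Of the 7 genes of spindle assembly and the spindle poles, 6 rose in fasted livers (median 1.97) and 3 in fed livers (median 1.32). Depdc1a read 6.44, 4.31 and 5.24 in Adeno-GFP fasted and 8.14, 8.50 and 8.42 in Adeno-Cre fasted livers, and 7.05, 7.49 and 6.11 against 8.61, 8.46 and 8.66 in fed livers. The 2 Adeno-GFP groups were widely spread and overlapped each other. It rose by 3.02 in fasted livers (8.12-fold, SE 0.43, adjusted p = 0.0023), and its fed change of 1.70 (SE 0.43, adjusted p = 0.0852) did not pass. Aspm, a spindle pole protein, moved little but evenly, from 6.51, 6.11 and 6.26 to 6.91, 7.22 and 7.36 in fasted livers and from 6.80, 6.83 and 6.68 to 7.52, 7.53 and 7.64 in fed livers. It rose by 0.87 (adjusted p = 0.00211) and 0.80 (adjusted p = 0.0135) without overlap. Nusap1, which bundles spindle microtubules, rose by 1.97 and 1.32, and Ckap2l, a spindle protein, by 1.43 and 1.22. Hmmr, a spindle protein that also binds hyaluronan, and Tpx2, the activator of Aurka, rose by 2.53 and 2.00 in fasted livers, and their fed changes of 1.45 (adjusted p = 0.0652) and 1.35 (adjusted p = 0.0603) did not pass. Ckap2, which stabilises microtubules, passed in neither diet, with changes of 1.64 (SE 0.40, adjusted p = 0.0511) and 0.80. Its Adeno-GFP fasted arrays read 7.80, 5.59 and 6.44, the widest spread of any member in any group (SD 1.11), and without replicate 1 of that group its fasted change was 2.24 (adjusted p = 0.000744).

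The condensin and chromosome genes all rose in fasted livers (6 of 6 measured, median 1.92), and 4 of 6 rose in fed livers (median 1.06). Top2a, the topoisomerase that untangles sister chromatids, read 7.58, 6.50 and 6.90 in Adeno-GFP fasted and 9.12, 9.31 and 9.80 in Adeno-Cre fasted livers. In fed livers it read 8.44, 8.85 and 7.95 against 9.88, 9.74 and 9.77. The Adeno-Cre arrays were all higher, and Top2a rose by 2.42 (5.35-fold, SE 0.27, adjusted p = 0.000563) and 1.38 (2.61-fold, SE 0.27, adjusted p = 0.028). Among the condensin subunits, the shared core parts Smc2 and Smc4 rose by 1.87 and 1.36 in fasted and by 1.27 and 0.83 in fed livers. Ncaph, the clasp of condensin I, rose by 1.97 and 1.09. Ncapd2, another subunit of condensin I, read 7.17, 6.80 and 7.15 against 7.79, 7.67 and 7.92 in fasted livers and 7.29, 7.46 and 7.35 against 7.97, 7.54 and 7.78 in fed livers. Its rise of 0.75 passed in fasted livers (adjusted p = 0.00576) and its change of 0.40 in fed livers did not (adjusted p = 0.174). Mki67, the widely used marker of dividing cells, rose by 1.96 in fasted livers, and its fed change of 1.03 had an adjusted p of 0.0852.

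**Figure D3:**
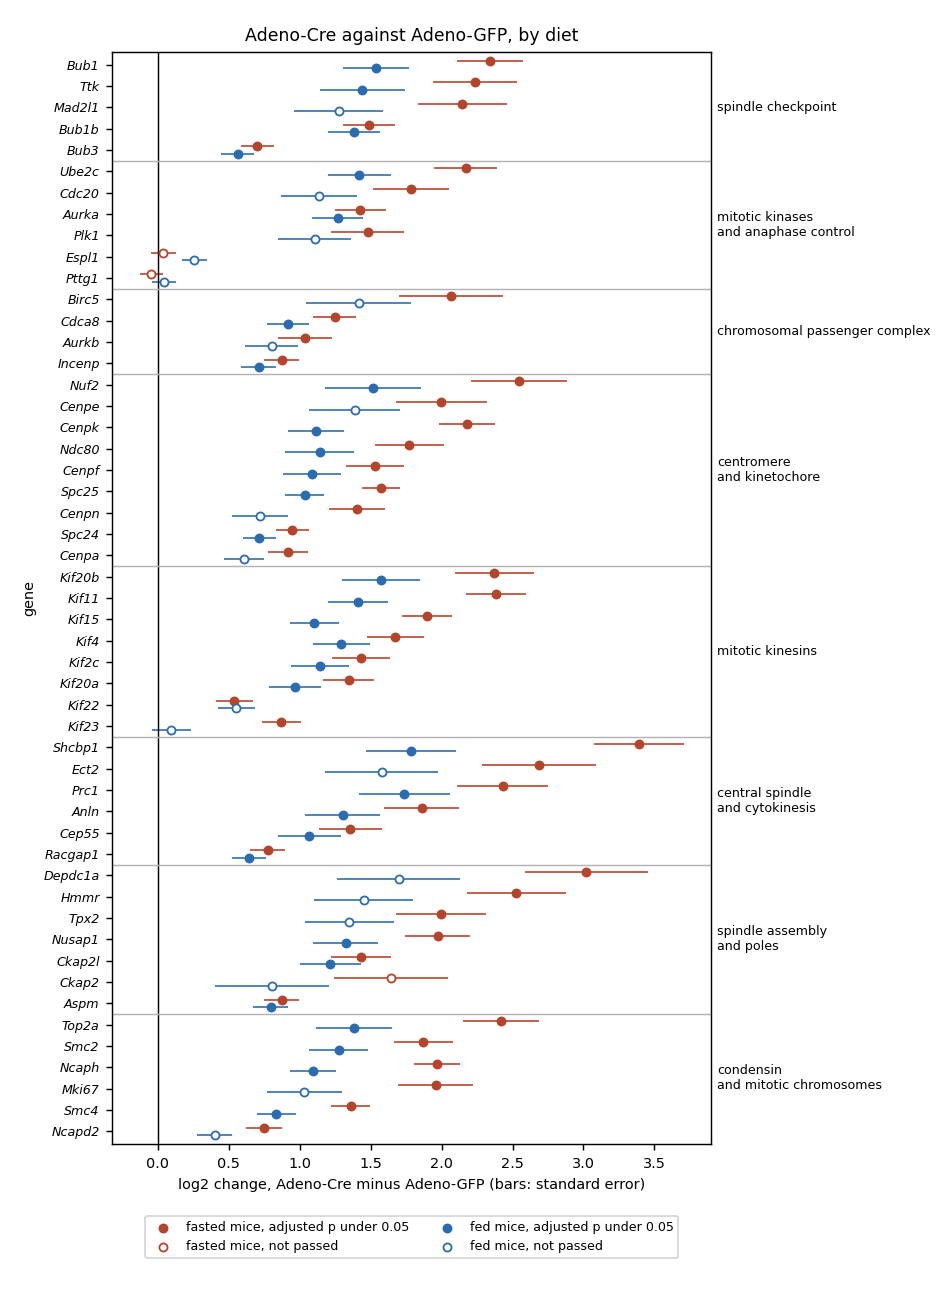
Log2 change of each of the 51 genes with Adeno-Cre against Adeno-GFP in fasted (red) and fed (blue) livers, with the standard error from the limma fit as bars. Filled points passed at an adjusted p under 0.05, which 48 genes did in fasted and 32 in fed livers. The fasted point lies to the right of the fed point for 48 of the 51 genes.

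Fasting went with lower levels of mitosis genes after Adeno-GFP. Of the 51 members, 17 fell and 0 rose, where 1.87% of all genes fell and 1.2% rose. Those that fell were Bub1, Cenpk, Ndc80, Nuf2, Spc25, Kif11, Kif15, Kif20b, Kif23, Nusap1, Hmmr, Shcbp1, Ncaph, Smc2, Smc4, Top2a and Mki67. The median change over all members was -0.86, with a range from -2.19 to 0.02, against 0.01 over all genes. All 3 fasted arrays lay below all 3 fed arrays for 28 members, where 11.1% of all genes did so. By role, 5 of 6 condensin and chromosome genes fell, 4 of 9 centromere and kinetochore genes, 4 of 8 kinesins, 2 of 7 genes of spindle assembly, 1 of 5 checkpoint genes and 1 of 6 genes of cytokinesis. None of the 6 kinases and anaphase regulators or the 4 passenger complex genes passed. The count was 33, 9 and 8 without Adeno-GFP fasted replicates 1, 2 and 3, and 8 and 7 without Adeno-GFP fed replicates 1 and 2. It was 10 with all probe sets in the adjustment, 29 of 49 with dim probe sets left out and 6 with only the groups compared in the fit. Cenpk, Kif11, Kif15, Kif23, Shcbp1, Ncaph and Smc4 fell whichever array was left out.

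The firmest of these falls were in genes already met. The Kif23 levels given above fell by 1.07 on the log2 scale with fasting after Adeno-GFP (2.10-fold lower, SE 0.14, adjusted p = 0.00174), and Shcbp1 fell by 2.19 (4.56-fold lower, SE 0.32, adjusted p = 0.00384). Cenpk read 6.18, 5.93 and 6.32 in fasted and 7.45, 7.92 and 7.00 in fed Adeno-GFP livers, and 8.23, 8.61 and 8.13 against 8.59, 8.57 and 8.55 after Adeno-Cre. The fasted arrays lay well below the fed ones after Adeno-GFP, a fall of 1.31 (adjusted p = 0.00432), while after Adeno-Cre the groups overlapped. Kif11 read 6.66, 6.26 and 6.09 fasted against 7.70, 8.21 and 7.34 fed after Adeno-GFP, and 8.38, 8.81 and 8.97 against 9.23, 9.09 and 9.15 after Adeno-Cre. It fell by 1.41 after Adeno-GFP (adjusted p = 0.00432), with no overlap after either virus. Kif15 read 5.82, 4.98 and 5.41 fasted against 6.46, 6.77 and 6.42 fed after Adeno-GFP, and 7.12, 7.41 and 7.37 against 7.75, 7.55 and 7.66 after Adeno-Cre. The groups were separate after either virus, and its fall of 1.15 after Adeno-GFP passed (adjusted p = 0.00477). Ncaph read 6.74, 6.24 and 6.43 fasted against 7.47, 7.77 and 7.24 fed after Adeno-GFP, a fall of 1.02 (adjusted p = 0.00546), and 8.23, 8.47 and 8.61 against 8.77, 8.43 and 8.55 after Adeno-Cre, where the groups overlapped.

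After Adeno-Cre, 0 of the 51 members passed for fasting against fed, where 1.17% of all genes fell and 1.5% rose. The lowest limma adjusted p was 0.122, for Aspm, whose change was -0.40 (95% interval -0.66 to -0.13). An unadjusted limma p under 0.05 was reached by 6 members, against 16.0% of all genes. The change was negative for 49 of the 51, with a median of -0.34 and a range from -0.61 to 0.13, and it was -0.20 without Adeno-Cre fasted replicate 1. All 3 fasted arrays lay below all 3 fed arrays for 23 members, against 9.81% of all genes. The next values are of the 6 members that were picked for their falls after Adeno-GFP. The change was -0.30 for Kif23 (95% interval -0.59 to -0.00), -0.58 for Shcbp1 (-1.27 to 0.11) and -0.25 for Cenpk (-0.67 to 0.18). It was -0.44 for Kif11 (-0.90 to 0.02), -0.35 for Kif15 (-0.73 to 0.03) and -0.15 for Ncaph (-0.49 to 0.20). The intervals, which are not adjusted for the number of genes, reach falls as large as 1.27 on the log2 scale for Shcbp1. They rest on a spread shared by all 4 groups, although the SDs differed between groups. For Shcbp1 the SD was 0.35 in Adeno-GFP fed and 0.87 in Adeno-GFP fasted livers. It was 0.03 in Adeno-Cre fed and 0.14 in Adeno-Cre fasted livers. With only the Adeno-Cre groups in the fit, Shcbp1 passed. The interval of Kif23 ends only just below 0, and its limma adjusted p was 0.310. The absence of calls therefore does not show that fasting left the genes unmoved, nor do these intervals show that it moved them.

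**Figure D4:**
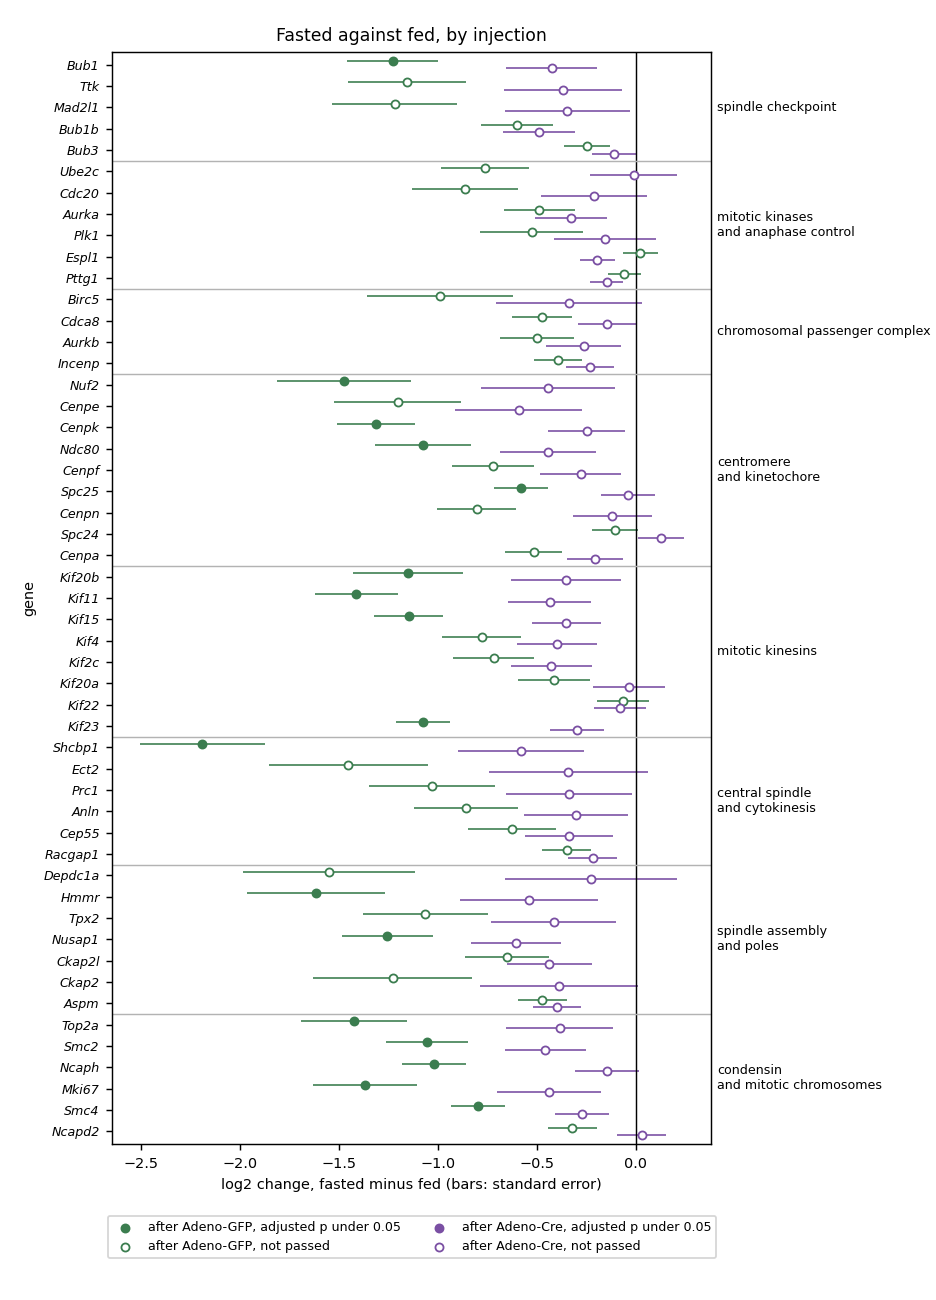
Log2 change of each of the 51 genes with fasting against feeding after Adeno-GFP (green) and after Adeno-Cre (purple), with the standard error from the limma fit as bars. Filled points passed at an adjusted p under 0.05, which 17 genes did after Adeno-GFP and 0 after Adeno-Cre. Most green points lie further below 0 than the purple points of the same gene.

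The difference between the diets was tested directly as the interaction, that is, the Adeno-Cre change in fasted livers minus that in fed livers. It was positive for 48 of the 51 members, with a median of 0.61 and a range from -0.22 to 1.61, against -0.0007 over all genes. The median was 0.38 without Adeno-GFP fasted replicate 2. In limma, 0 members passed, with a lowest adjusted p of 0.538, and 1 of all 22180 genes did (0.00451%). At an unadjusted p under 0.05 there were 14 members, against 7.56% of all genes. Among them were Shcbp1 at 1.61 (95% interval 0.63 to 2.58), Cenpk at 1.06 (0.46 to 1.67) and Kif11 at 0.98 (0.33 to 1.62). Ncaph at 0.87 (0.38 to 1.36) and Kif23 at 0.78 (0.36 to 1.19) were others. These genes were picked for the small p-values of their falls after Adeno-GFP. Those falls enter the interaction, so picking by them favours high values. That more members passed in fasted than in fed livers is therefore not shown, gene by gene, to be a difference between the diets.

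Other genes of mitosis were mostly higher with Adeno-Cre too. Of a second list of mitosis genes, also chosen with earlier results of these data known, 55 were measured. Of these, 37 rose in fasted livers (median 0.86) and 32 in fed livers (median 0.77), and 0 fell in either. Of all genes, 2.26% and 1.08% rose. Cdk1, the partner kinase of the mitotic cyclins, rose by 2.26 in fasted (adjusted p = 0.000325) and 1.46 in fed livers (adjusted p = 0.0116). Sgo1, which protects centromeric cohesion, rose by 1.14 and 0.90, and Zwilch, of the complex that brings checkpoint proteins to kinetochores, by 1.88 and 1.39. Cenpi, of the inner kinetochore, rose by 1.55 and 1.21, and the spindle protein Dlgap5 by 1.90 and 1.29. With fasting, 15 of the 55 fell after Adeno-GFP and 1 after Adeno-Cre, Cenpl, which was named after its value was seen, where 1.87% and 1.17% of all genes fell. For 51 of the 64 genes on that list, measured or not, the promoter table held 55 promoters. Both a CCAAT box and a CHR were present in 29.1% of these, against 7.52% of all promoters. Ccnb1, also chosen to be named, was not analysed here.

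Some transcription regulators of the cell cycle were higher as well. Of 23 measured, 7 rose with Adeno-Cre in fasted livers and 2 in fed livers, where 2.26% and 1.08% of all genes did, and 0 fell. Lin9, a core part of the MuvB complex that DREAM is built on, rose by 1.25 in fasted livers (adjusted p = 0.000761), and its fed change was 0.59 (adjusted p = 0.0754). Mybl1, a MYB factor, rose by 1.39 and Rbl1, the pocket protein p107 of DREAM, by 1.16 in fasted livers, with fed changes of 0.81 (adjusted p = 0.117) and 0.61 (adjusted p = 0.13). The repressor E2f8 rose by 1.03 and 1.04, and E2f7 by 0.78 in fasted livers with a fed change of 0.26. Foxm1, an activator of mitosis genes, rose by 0.75 in fed livers (adjusted p = 0.0171) and changed by 0.33 in fasted livers (adjusted p = 0.205). Mybl2, a MYB factor that joins MuvB in dividing cells, changed by -0.14 and -0.03, neither of which passed. With fasting after Adeno-GFP, 3 of the 23 fell, where 1.87% of all genes did, with changes of -1.11 for Lin9, -1.09 for Mybl1 and -0.76 for E2f7, and after Adeno-Cre 0 of 23 passed, with 6 at an unadjusted limma p under 0.05, against 16.0% of all genes.

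Mitosis genes are also active in dividing immune and other liver cells, so marker genes were set beside them. Of 15 T and NK cell markers, Gzma, a cytotoxic granule protease, rose with Adeno-Cre in both diets (0.65, adjusted p = 0.0295, and 0.71, adjusted p = 0.0307), and the others did not pass. The summed linear level of these markers ran from 1257 to 1417 in Adeno-Cre fed against 1162 to 1178 in Adeno-GFP fed livers, and from 1118 to 1203 in Adeno-Cre fasted against 1159 to 1167 in Adeno-GFP fasted livers. The sum was thus higher with Adeno-Cre in fed livers and overlapped in fasted livers. Of 13 Kupffer cell and macrophage markers, Lyz2 fell in fasted livers (-0.71, adjusted p = 0.027). With Adeno-Cre, 12 of the 13 were lower in fasted livers (median -0.37) and 6 in fed livers (median 0.0007). With fasting, 12 were lower after Adeno-Cre (median -0.38) and 7 after Adeno-GFP (median -0.04). Their sums were 2810 to 4224 in Adeno-Cre fasted and 4206 to 6188 in Adeno-GFP fasted livers. In fed livers they were 3697 to 5464 after Adeno-Cre and 5001 to 5221 after Adeno-GFP. None of 12 hepatocyte markers passed with Adeno-Cre, but 10 of the 12 were lower with it in each diet. Their median change was -0.11 in fasted and -0.06 in fed livers. Their sum was slightly lower with Adeno-Cre, at 70574 to 71561 against 73578 to 76707 in fasted and 68420 to 71135 against 72773 to 73611 in fed livers. Stellate cell markers, of which 0 of 10 passed with Adeno-Cre within either diet and 2, Reln and Ecm1, fell averaged over diets, summed to 5314 to 6382 against 6592 to 7155 in fasted and 5387 to 6358 against 6792 to 7015 in fed livers, and with fasting 2 of the 10 fell after Adeno-GFP and 3 after Adeno-Cre. None of 7 B and plasma cell, 11 neutrophil and monocyte, 10 endothelial or 5 cholangiocyte markers passed with Adeno-Cre in either diet, and of 3 erythroid markers Slc4a1 fell in fasted livers. Averaged over diets, the monocyte marker Ly6c2 rose and the endothelial marker Ehd3 and the cholangiocyte marker Krt7 fell. The endothelial sum ran from 3286 to 4735 in Adeno-Cre fed against 4911 to 5264 in Adeno-GFP fed livers, without overlap, and from 4038 to 4523 against 3741 to 4926 in fasted livers. All 10 endothelial markers were lower with Adeno-Cre in fed livers (median change -0.32), as were 9 of the 10 stellate cell markers (median -0.20). The median over all genes was -0.02. In fasted livers, 6 endothelial and 10 stellate cell markers were lower (medians -0.05 and -0.24), against a median of -0.03 over all genes. The part of these cell types in the mitosis gene result was not tested.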

How the data were processed

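Liver RNA was hybridised to 12 arrays, 3 a group, from 200 ng per the labels' protocols. The authors deposited RMA log2 values, 1 for each probe set and array, according to the submitters' processing notes, per the labels. The software, its version and a build were not given in the sources used here. Of 41345 probe sets, a platform annotation named 1 gene for 23521, several for 1814 and did not list 16010, and gene identifiers of 23328 of the 23521 were found in the RefSeq gene table. Of several probe sets of a gene, the one with the highest mean over the arrays was kept (1082 of 22180 genes had several).

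All 12 arrays entered 1 limma model (version 3.58.1, R 4.3.3) of 4 group means with eBayes, a procedure also tested on simulated data. Benjamini-Hochberg adjustment ran over 22180 genes, with a threshold of 0.05. The number of arrays limits the precision. Intervals (95%) and SE are those of the fit, in which the 4 groups share 1 estimate of the spread of a gene. The other mitosis genes, regulators, p53 targets and marker lists of T and NK, B and plasma, Kupffer, neutrophil and monocyte, endothelial, stellate, cholangiocyte, erythroid and hepatocyte cells, like the members, were chosen with earlier results of these data known.

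Values on every array are given for the members with the largest and smallest averaged Adeno-Cre change of each role group and for the 6 with the smallest p among those that passed for fasting. From other lists, up to 5 genes by p and a few named in advance are given, and any further gene was named after its values were seen. Same-numbered arrays of different groups were checked for pairing: 3 of 18 pairs of deviations correlated above 0.1, so the numbers were not taken to pair the samples. Marker sums add linear levels (powers of 2 of the log2 values). Alternatives were a replicate block, dim probe sets left out (those under the median of the gene means, leaving 11090 genes), quantile normalization again, other probe set rules, another prior, only the groups compared, and each array left out.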

Additional observations from a re-analysis of the deposited data

How the results depend on the processing

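With Adeno-Cre in fasted mice, 46 to 48 members rose under all 7 other settings and 47 to 48 with any array left out, and averaged over diets 48 to 49 rose. The median fasted change ran from 1.47 to 1.98 with an array left out. In fed mice, the 32 members became 10 with all probe sets in the adjustment, 44 of 49 with dim probe sets left out and 2 to 44 with an array left out. There, 2 members (Bub1b and Spc25) passed whichever array was left out. For fasting after Adeno-GFP, the 17 members became 10 with all probe sets in the adjustment, 29 of 49 with dim probe sets left out, 6 with only the groups compared and 7 to 33 with an array left out, of which 7 passed whichever was left out. For fasting after Adeno-Cre, 1 member, Shcbp1 (-0.58), passed with only the groups compared. The cause of these shifts was not tested. The interaction gave 0 calls under each setting run for it. It and the average over diets use all 4 groups and were not run with only the groups compared. With the replicate number as a block, 47 members rose in fasted mice, 24 in fed mice and 49 averaged over diets, and 13 fell with fasting after Adeno-GFP. Members near no change turned sign: Espl1 to -0.011 for fasting after Adeno-GFP when normalized again. With an array left out, Pttg1 ran from -0.026 to 0.039 averaged over diets, Spc25 from -0.084 to 0.011 for fasting after Adeno-Cre, Espl1 from -0.043 to 0.13 with Adeno-Cre in fasted and Kif23 from -0.044 to 0.19 in fed mice. Levels near those of unexpressed genes limit the sizes in Adeno-GFP fasted livers.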
